A study of Mus musculus with 6 samples.

Results

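Insulin-like growth factors and their binding proteins were followed through whole adrenal glands of mice in which the Hippo kinases MST1 and MST2 were to be lost from steroid-producing cells. The family was taken as 10 genes: the ligands Igf1 and Igf2, the receptors Igf1r and Igf2r, and 6 binding proteins, Igfbp2 to Igfbp7. Each gene was represented by the probe set whose single annotated symbol was that of the gene, and each had 1 such probe set, which gives 10 of the 22206 probe sets compared. Control glands (n = 3) came from females aged 2 months with floxed alleles of both kinase genes, Mst1flox/flox;Mst2flox/flox, and no Cre. Mutant glands (n = 3) came from females of the same age with the same floxed alleles and Nr5a1-cre, a transgene active in cells that express Nr5a1, which are the steroidogenic cells but also some pituitary and hypothalamic cells. No group carried Cre without floxed alleles, so effects of the transgene itself and of the lost kinases cannot be told apart. The comparison asked how mutant glands differed from control glands, with 1 array per animal.

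IGF1 and IGF2 are secreted peptides related to insulin that promote growth and survival of cells. Both act mainly through the tyrosine kinase IGF1R, whereas IGF2R carries IGF2 to lysosomes and so removes it. Binding proteins hold the ligands outside cells and either limit or prolong their action, and proteases release the ligands again. In the adrenal gland this pathway is known for its role in growth of the cortex, and IGF2 is commonly raised in human adrenocortical carcinoma.

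The glands carried the defining transcripts of adrenal cortex and medulla. The signal of Cyp11b1, the last enzyme of corticosterone synthesis, was 18.64 ± 0.07 log2 units in controls and 18.55 ± 0.10 in mutants (SD, n = 3 each), and that of the chromaffin enzyme Th was 16.13 ± 0.49 and 15.88 ± 0.17. Of 7 kidney markers, 6, Umod among them, had means in both groups no higher than the brightest background probe set (7.32), here called the background range. The remaining marker, Nphs1, lay above it, with means of 9.69 in controls and 9.75 in mutants. Median signals of the 6 arrays lay between 6.76 and 6.83, so the arrays are close in their centre. Their spreads were not compared. The targeted kinase gene Stk4, which encodes MST1, differed by -0.32 log2 units (SE 0.19, limma adjusted p = 0.623) with groups that overlapped. The position of its probes against the deleted exons is unknown here and Cre is not active in every cell of the gland, so this is no check of genotype. The gene of MST2 was not analysed here.

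Promoter sequences of the family are shown first because MST1 and MST2 restrain YAP and TAZ, which bind DNA through TEAD factors, and because NR5A1 is the factor of steroidogenic cells. RefSeq windows (GRCm38.p6) of 250 bases before each annotated start were available for all 10 genes, 14 windows in all. They were searched on both strands for the TEAD core GGAATG and the NR5A1 core AAGGTCA, and no match of one overlapped a match of the other. Of all 32851 windows of this length, 12.6% held the TEAD core and 4.08% the NR5A1 core. The first set below belongs to the genes whose control and mutant animals did not overlap, and capitals, which mark a match, are absent from it (the other Igfbp2 window held no match either).
Igf1, chr10:87860861-87861110, plus strand: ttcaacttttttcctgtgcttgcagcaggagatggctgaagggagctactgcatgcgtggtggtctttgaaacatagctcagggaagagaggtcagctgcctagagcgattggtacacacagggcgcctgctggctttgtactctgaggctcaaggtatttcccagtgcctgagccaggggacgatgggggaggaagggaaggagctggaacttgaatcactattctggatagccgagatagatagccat
Igfbp2, first of its windows, chr1:72824230-72824479, plus strand: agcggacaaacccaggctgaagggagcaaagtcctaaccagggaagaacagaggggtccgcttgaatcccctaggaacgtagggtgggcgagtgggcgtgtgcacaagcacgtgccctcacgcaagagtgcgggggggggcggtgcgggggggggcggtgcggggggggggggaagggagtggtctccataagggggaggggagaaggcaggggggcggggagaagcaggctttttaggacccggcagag
Igfbp7, chr5:77408046-77408295, minus strand: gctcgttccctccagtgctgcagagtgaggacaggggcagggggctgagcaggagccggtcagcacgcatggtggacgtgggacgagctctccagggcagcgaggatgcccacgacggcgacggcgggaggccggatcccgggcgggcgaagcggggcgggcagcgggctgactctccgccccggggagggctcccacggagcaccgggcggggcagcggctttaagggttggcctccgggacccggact

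The second set holds matches, in capitals, and belongs to genes whose groups overlapped. The TEAD core was found in 4 of the 14 windows, 3 of the 4 windows of Igf2 and the window of Igfbp5. The NR5A1 core was found in 1 window, that of Igf1r. Igf2r, Igfbp3, Igfbp4 and Igfbp6, whose groups also overlapped, had no match, and neither did the first window of Igf2 (not shown). Whether matches go with the differences between groups was not tested.
Igf2, the second of its windows, chr7:142661272-142661521, minus strand: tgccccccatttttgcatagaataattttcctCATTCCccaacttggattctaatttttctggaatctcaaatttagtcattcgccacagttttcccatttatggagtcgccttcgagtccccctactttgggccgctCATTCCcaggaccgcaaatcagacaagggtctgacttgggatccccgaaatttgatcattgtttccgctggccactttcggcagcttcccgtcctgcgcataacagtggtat
Igfbp5, chr1:72874866-72875115, minus strand: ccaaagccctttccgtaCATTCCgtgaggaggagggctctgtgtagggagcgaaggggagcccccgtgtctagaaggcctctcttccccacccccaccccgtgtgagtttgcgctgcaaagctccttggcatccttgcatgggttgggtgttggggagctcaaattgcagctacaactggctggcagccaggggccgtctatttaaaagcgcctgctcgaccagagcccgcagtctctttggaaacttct
Igf1r, chr7:67952007-67952256, plus strand: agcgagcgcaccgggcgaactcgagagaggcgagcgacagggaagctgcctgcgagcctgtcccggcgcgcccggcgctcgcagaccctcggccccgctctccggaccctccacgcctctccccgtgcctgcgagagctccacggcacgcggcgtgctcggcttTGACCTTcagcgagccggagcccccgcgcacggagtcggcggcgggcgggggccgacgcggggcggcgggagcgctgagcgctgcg
A match is a run of letters and no evidence of binding, and its absence here says nothing of sites elsewhere in these genes.

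No family member passed an adjusted p of 0.05 in limma's test over all probe sets (0 of 10, where 0.0721% of all probe sets passed). The ligand gene Igf1 and the binding protein gene Igfbp2 nevertheless had the largest differences of the family, with every mutant gland above every control gland. Igfbp7 was also separated between groups, by a smaller difference. In all, 3 of 10 members had mutants wholly above controls (8.0% of all probe sets did) and 0 wholly below (8.36%). At an unadjusted p under 0.05 there were 4 higher members (5.42% of all probe sets) and 0 lower ones (4.96%). The mean was higher in mutants for 9 of 10 members, against 48.0% of all probe sets, and the median log2 change was 0.35 against -0.01 over all probe sets. The members were chosen with earlier results of these data known. These counts therefore describe the family and are no independent evidence that it rose. All 10 members were above the background range in both groups, whereas the median signals of the arrays (6.76 to 6.83) lay within it. Shares over all probe sets, here and below, are therefore not shares of probe sets with signals like those of the members.

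**Figure D1:**
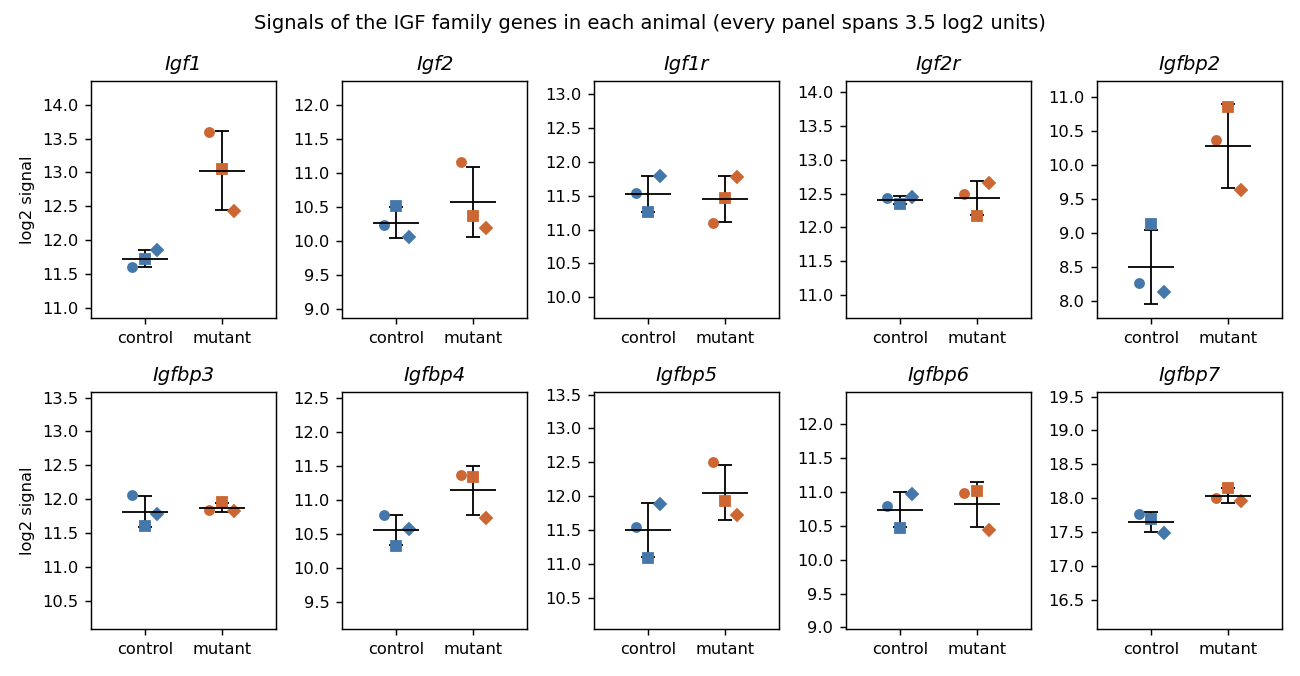
Log2 signal of each of the 10 family genes in control and mutant glands, 1 symbol per animal (circle, square and diamond for replicates 1, 2 and 3), with bars for the mean and SD of 3 animals. Every panel spans the same number of log2 units, and mutants lie wholly above controls for Igf1, Igfbp2 and Igfbp7 only.

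Among the ligands, Igf1 (probe set TC1000001066.mm.2) measured 11.60, 11.72 and 11.86 log2 units in control glands against 13.59, 13.05 and 12.44 in mutant glands. The controls lay close together, and the lowest mutant was 0.58 above the highest control. The mean was 11.73 ± 0.13 in controls and 13.03 ± 0.58 in mutants (SD, n = 3 each), a measured 2.47-fold difference with a 95% interval of 1.60 to 3.80. The log2 change of 1.30 (SE 0.27) had a limma adjusted p of 0.155 and did not pass. In whole glands, a change in the number of cells of a type and a change in RNA per cell cannot be told apart.

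Igf2, the growth factor of fetal tissues (probe set TC0700004571.mm.2), measured 10.23, 10.52 and 10.06 in control glands against 11.16, 10.37 and 10.19 in mutant glands. Only mutant 1 lay above the controls, and the other mutants fell within the control range. The log2 change was 0.30 (SE 0.26, limma adjusted p = 0.755; the 95% interval runs from -0.30 to 0.90), and it was 0.0096 without mutant 1. In the RefSeq order of coding genes, Igf2 lies next to Ins2, whose signal was within the background range in both groups (log2 change -0.03, SE 0.24).

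The receptors had small differences. Igf1r, which signals for both ligands, measured 11.53, 11.26 and 11.79 in control glands against 11.09, 11.47 and 11.78 in mutant glands. Its groups overlapped, with a log2 change of -0.08 and a 95% interval of -0.58 to 0.42 (limma adjusted p = 0.937). Igf2r measured 12.43, 12.34 and 12.45 in control glands against 12.49, 12.16 and 12.66 in mutant glands. The controls sat inside the spread of the mutants, and the log2 change was 0.03 (95% interval -0.35 to 0.41, limma adjusted p = 0.970). These intervals still allow differences of about the size seen for Igfbp7.

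Igfbp2, a binding protein also found in the circulation and prominent in fetal tissues, had the largest difference of the family. Its probe set (TC0100000610.mm.2) measured 8.25, 9.13 and 8.12 in control glands against 10.37, 10.86 and 9.63 in mutant glands. Control 2 was the highest control and mutant 3 the lowest mutant, and a gap of 0.50 remained between them. The mean was 8.50 ± 0.55 in controls and 10.28 ± 0.62 in mutants (SD, n = 3 each), a measured 3.44-fold difference with a 95% interval of 1.95 to 6.06. The log2 change of 1.78 (SE 0.36) had a limma adjusted p of 0.135, and 0.14% of all probe sets had a larger change in size. By unadjusted p it ranked 157 of 22206 probe sets, and Igf1 ranked 180.

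Igfbp5, a binding protein that also attaches to extracellular matrix, is the coding gene next to Igfbp2 on chromosome 1. It measured 11.54, 11.08 and 11.88 in control glands against 12.50, 11.94 and 11.72 in mutant glands. Mutant 3 lay below control 3, so the groups overlapped, and its log2 change was 0.55 (SE 0.26, limma adjusted p = 0.529; the 95% interval runs from -0.06 to 1.15). It was 0.32 without mutant 1 and 0.34 without control 2.

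Igfbp4, a binding protein that mainly restrains IGF action and is cut by the protease PAPP-A, measured 10.78, 10.32 and 10.58 in control glands against 11.37, 11.33 and 10.73 in mutant glands. Mutants 1 and 2 lay above every control, and mutant 3 lay just below control 1. The log2 change was 0.59, a measured 1.50-fold difference (95% interval 1.07 to 2.11), and the limma adjusted p of 0.402 did not pass.

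Igfbp7, a secreted protein of vessel walls and matrix with low affinity for the ligands, measured 17.76, 17.69 and 17.49 in control glands against 18.00, 18.16 and 17.95 in mutant glands. The animals of each group lay close together, and the gap between groups was 0.19. The mean was 17.65 ± 0.14 in controls and 18.04 ± 0.11 in mutants (SD, n = 3 each). The log2 change of 0.39 (SE 0.15, 95% interval 0.05 to 0.74) had a limma adjusted p of 0.423. At a signal this bright an array may saturate and understate a difference; this was not tested.

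Igfbp3 and Igfbp6 had the smallest differences among the binding proteins. Igfbp3, the main carrier of the ligands in blood, measured 12.06, 11.61 and 11.78 in control glands against 11.85, 11.96 and 11.82 in mutant glands, all mutants lying inside the control range. Its log2 change was 0.06 (95% interval -0.32 to 0.43, limma adjusted p = 0.938). Igfbp6, which prefers IGF2 as its ligand, measured 10.79, 10.46 and 10.97 in control glands against 10.99, 11.02 and 10.44 in mutant glands. Mutant 3 was the lowest of the 6 animals and mutant 2 the highest, and the log2 change was 0.08 (95% interval -0.41 to 0.56, limma adjusted p = 0.939).

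**Figure D2:**
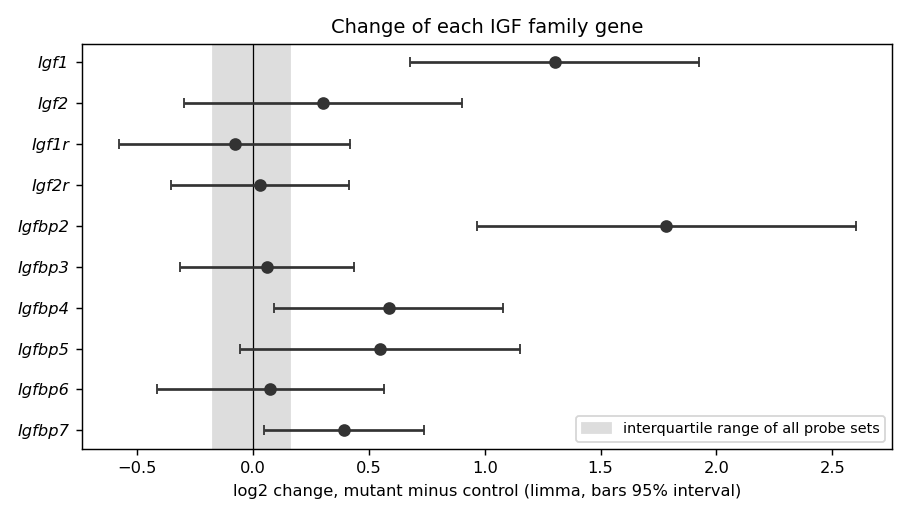
Log2 change, mutant minus control, of each family gene (points) with 95% intervals from limma (bars), against the interquartile range of the changes of all probe sets (grey band, -0.17 to 0.16). Intervals of Igf1, Igfbp2, Igfbp4 and Igfbp7 lie above 0, although no gene passed after adjustment over all probe sets.

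The members did not share 1 order of animals. Among the mutants, mutant 3 was the lowest for 8 of the 10 members. The exceptions were the receptors, for which mutant 3 was the highest mutant. Mutant 1 was the highest animal for Igf1, Igf2, Igfbp4 and Igfbp5, whereas mutant 2 was the highest for Igfbp2, Igfbp6 and Igfbp7.

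Marker lists of other cell types, some of which are known sources of IGF1 or its binding proteins, were also higher in mutant glands. Endothelial markers were higher for 7 of 8 measured genes, with list means from 12.35 to 12.60 in controls and from 12.82 to 12.89 in mutants. Macrophage markers were higher for 7 of 7, with means from 9.10 to 9.25 in controls and from 9.30 to 9.69 in mutants. Smooth muscle markers were higher for 5 of 7, with means from 9.19 to 9.40 and from 9.56 to 9.98. The lower ones, Myh11 (-0.07) and Cnn1 (-0.29), were within the background range in both groups. For these lists the means of the animals did not overlap between groups, narrowly so for macrophages (9.25 in control 3, 9.30 in mutant 3). The largest macrophage difference was that of Cd163 (log2 change 0.91), within the background range in both groups. Adgre1, C1qa and C1qb differed by 0.15, 0.08 and 0.09, and for each of them mutant 3 lay below every control. Of the defining markers, Pecam1 differed by 0.49 log2 units (SE 0.15, limma adjusted p = 0.312) and Csf1r 0.52 (SE 0.19, limma adjusted p = 0.398).

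Fibroblast and fat markers overlapped between groups. Fibroblast markers were higher for 7 of 8 measured genes, with means of 9.95, 9.75 and 10.26 in control glands against 11.01, 10.47 and 10.06 in mutant glands, and Col1a1 differed by 0.88 log2 units (SE 0.38, limma adjusted p = 0.484). Within the mutants the order of the fibroblast means, mutant 1 over mutant 2 over mutant 3, is also that of Igf1, Igf2, Igfbp4 and Igfbp5, and the smooth muscle and adipocyte means have the same order. Adipocyte markers were higher for 9 of 9 genes, with a median log2 change of 1.06, the largest median of the marker lists. Their means were 7.48, 9.03 and 10.48 in control glands against 11.97, 9.37 and 8.72 in mutant glands, with Adipoq at 9.91 ± 2.37 and 11.40 ± 2.41 (SD, n = 3 each). Adrenal cortex markers were lower for 7 of 9 genes and chromaffin markers for 5 of 5, with median log2 changes of -0.09 and -0.32, and kidney markers had a median of 0.01.

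**Figure D3:**
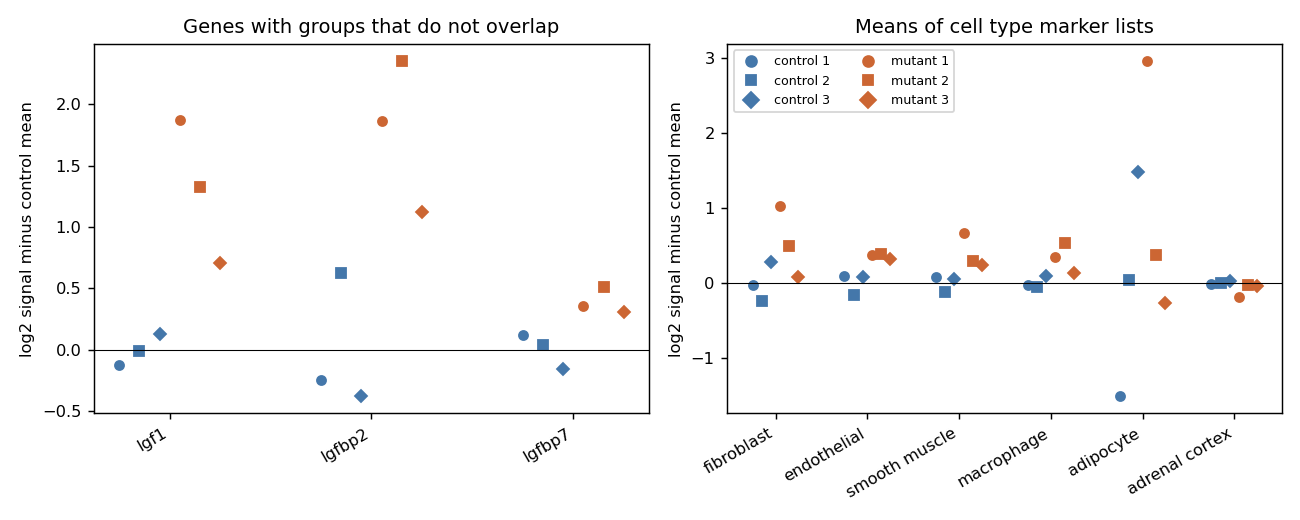
Log2 signal of each animal minus the mean of the 3 controls, for Igf1, Igfbp2 and Igfbp7 (left) and for the means of 6 marker lists (right), with blue symbols for controls and orange for mutants. Endothelial, smooth muscle and macrophage means of mutants lie above those of controls, fibroblast means overlap, and adipocyte means spread widest in both groups.

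With list means entered as a covariate in limma, the family's differences moved by unequal amounts. The log2 change of Igf1 was 0.77 with the fibroblast mean, 0.78 with the macrophage mean, 1.03 with the endothelial mean and 1.08 with the adipocyte mean. That of Igfbp2 was 1.72, 1.10, 2.68 and 1.74 in the same order, and that of Igfbp7 was 0.43, 0.32, 0.40 and 0.44. Igfbp4 went to 0.28, 0.11, -0.13 and 0.53, and Igfbp5 to 0.03, 0.18, -0.42 and 0.36. None of these 5 genes passed with any of these covariates. Several list means differ between the groups and each such fit leaves 3 residual degrees of freedom, so these values are imprecise. Endothelial and macrophage means did not overlap between groups, so fits with them cannot separate the list from the group. The part of other cell types in the result was not tested.

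The call for Igf1 and Igfbp2 depended on how variance was modelled. When limma's prior variance followed a trend on signal level, both passed, with an adjusted p of 0.0464 for Igf1 and 0.0483 for Igfbp2, and with a robust prior as well these were 0.0418 and 0.0448. Over all alternatives the adjusted p ranged up to 0.999 for both genes, and no other alternative gave a pass for any member. The 0.999 came from the endothelial covariate, whose list means did not overlap between groups. With that covariate 0 probe sets were called in all. With the trend, 145 probe sets were called in all, against 16. Without any single animal, the log2 change of Igf1 lay between 1.02 and 1.60 and that of Igfbp2 between 1.50 and 2.11.

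**Figure D4:**
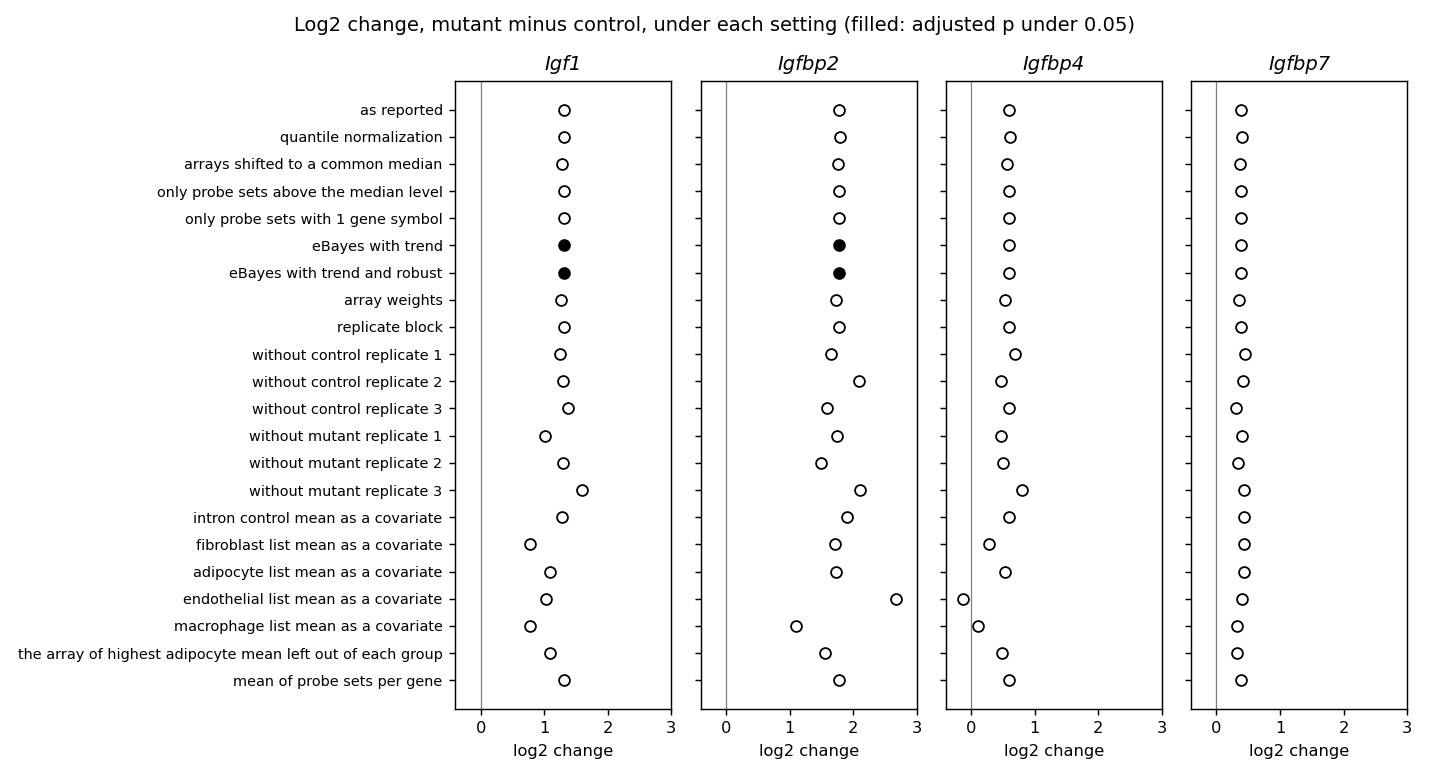
Log2 change, mutant minus control, of Igf1, Igfbp2, Igfbp4 and Igfbp7 as reported and under each other setting (rows), with filled points where the limma adjusted p was under 0.05. Filled points occur only for Igf1 and Igfbp2 with a variance trend, and Igfbp4 with the endothelial covariate is the only point below 0.

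Genes that act around the family were taken from fixed lists of 51 genes, of which 45 were measured. None passed the limma test over all probe sets (0 of 45), and at an unadjusted p under 0.05 there were 6 higher and 2 lower (5.42% and 4.96% of all probe sets). Groups did not overlap for 5 higher and 5 lower genes (8.0% and 8.36% of all probe sets). Their median log2 change was 0.03.

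Of 5 genes for proteins that free ligands from binding proteins, or hinder this, 3 were higher and 2 lower. Stc1, a stanniocalcin that inhibits PAPP-A, measured 7.71, 7.59 and 7.95 in control glands against 8.60, 8.45 and 8.20 in mutant glands, without overlap (log2 change 0.67, SE 0.17, limma adjusted p = 0.245). Its relative Stc2 was lower (-0.43, SE 0.17), within the background range in both groups. Htra1, a secreted protease that cuts IGF binding proteins, measured 11.15, 11.02 and 10.87 in control glands against 11.53, 11.32 and 11.75 in mutant glands (log2 change 0.52, SE 0.17, limma adjusted p = 0.348). Pappa, the gene of PAPP-A, was within the background range in both groups (0.24, SE 0.27). So were Igfbp1, the neighbour of Igfbp3 (-0.08, SE 0.17), and Igfals, which joins circulating complexes with IGFBP3 (0.50, SE 0.16).

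Among the receptors and the genes downstream of them, differences went both ways and none passed. Insr, the insulin receptor gene, differed by 0.05 log2 units (SE 0.18, limma adjusted p = 0.952), and its relative Insrr -0.0021 (SE 0.20) within the background range. Grb14, an adaptor that dampens insulin receptor signalling, had 0.70 (SE 0.20, limma adjusted p = 0.287) at signals within the background range, and the docking protein gene Gab1 had 0.48 (SE 0.21). Of 8 genes of PI3 kinase and AKT, 6 were lower, with Akt2 at -0.45 (SE 0.22) and the catalytic subunit gene Pik3cb at 0.51 (SE 0.19). Of 9 genes of mTOR and FOXO signalling, 4 were lower, among them Ddit4, a stress-induced inhibitor of mTOR (-0.35, SE 0.16), and Eif4ebp1, a translation repressor that mTOR switches off (-0.34, SE 0.17).

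Growth hormone drives Igf1 in liver, and its pathway was measured beside it. Socs2, a feedback inhibitor of the growth hormone receptor, measured 11.94, 11.59 and 11.44 in control glands against 10.52, 11.24 and 10.69 in mutant glands. All mutants lay below all controls, and the log2 change of -0.84 (SE 0.23, limma adjusted p = 0.260) did not pass. Ghr, the receptor gene, measured 12.57 in mutant 1 and 10.53 to 10.62 in the other mutants, against 10.01 to 10.79 in controls. The imprinted gene Cdkn1c differed by 0.70 log2 units (SE 0.32, limma adjusted p = 0.503) and Plagl1, also imprinted, by 0.61 (SE 0.38), the latter within the background range.

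**Figure D5:**
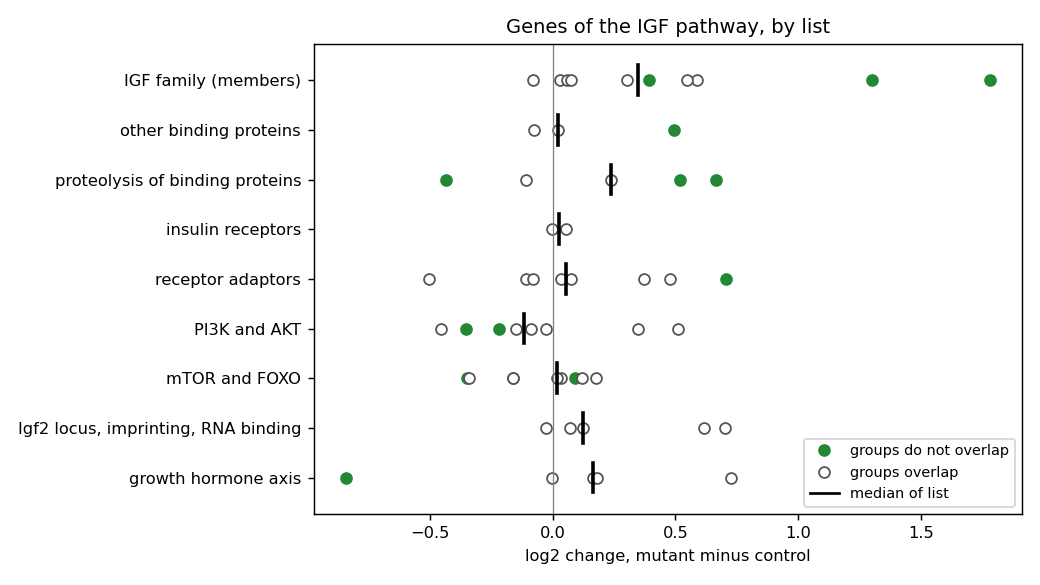
Log2 change, mutant minus control, of each measured gene in the 9 pathway lists, with the family at the top, green points where the 3 mutants and 3 controls did not overlap, and a bar at each list's median. Igf1 and Igfbp2 lie farthest to the right, and Socs2 of the growth hormone list farthest to the left.

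The genes whose profile over the 6 arrays was most like that of Igfbp2, the member of smallest p, were sought among 19504 others. After centring each gene on its own mean, the smallest root mean square differences were 0.349 log2 units for Bcat1, a branched-chain amino acid transaminase, 0.359 for the alcohol dehydrogenase gene Adh7, and 0.368 for Speg, a striated muscle kinase. Adh7 measured 12.76, 12.60 and 12.11 in control glands against 14.12, 14.43 and 13.83 in mutant glands (log2 change 1.63, SE 0.22, limma adjusted p = 0.0529). Bcat1 and Speg passed the test (log2 changes 1.61 and 1.79, limma adjusted p = 0.0296 for each). All 3 genes were chosen for likeness to Igfbp2 in these same arrays. A similar difference between groups therefore follows from the choice and is no separate evidence for Igfbp2.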

How the data were processed

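The authors deposited log2 signals per probe set, 1 column per animal; the log2 scale was read from the values. Transcriptome Analysis Console 4.0 is the tool named in the submitters' processing notes, and how signals were background-corrected, summarised and normalized is not given there. After removal of 6640 control probe sets, 22206 remained, of which 19572 had 1 gene symbol, 0 several and 2634 none in the platform's annotation. Mutant minus control was fitted over all 6 arrays by limma 3.58.1 (lmFit, then eBayes; R 4.3.3), two-sided, with Benjamini-Hochberg adjustment over all 22206. No filter or covariate was used, and folds are powers of 2 of log2 changes. A gene with several probe sets was represented by that of highest mean. The number of animals limits the precision.

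The fit was tested on data simulated for 22206 probe sets from their measured means and variances: 47 of 100 changes of 1 log2 unit and 89 of 100 changes of 2 were called, with 10 false calls.

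Members and lists were chosen with earlier results of these data known. Besides all members, each pathway list's genes of smallest p, up to a pair, were named, with Igfbp1, Insr, Pappa and Stk4. Stc2 and the expression of Ins2 were named after their values were seen. H19 was also to be named, but no probe set carried its symbol. Alternatives were other normalizations, filters, variance models, weights, covariates, thresholds, a replicate block and animals left out. The endothelial and macrophage covariates, and leaving out each group's array of highest adipocyte mean, were added after seeing the data.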

Additional observations from a re-analysis of the deposited data

How the results depend on the processing

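The count of family members past the threshold was 0 under 20 of 22 alternatives and 2 (Igf1 and Igfbp2) with a variance trend, with or without a robust prior, and that of the 45 pathway genes was 0 under all 22. Log2 changes of Igf1, Igfbp2 and Igfbp7 stayed above 0 under all 21 alternatives that refit them, in ranges of 0.77 to 1.60, 1.10 to 2.68 and 0.31 to 0.45. The count over all probe sets, 16, was less stable: it was 38 with quantile normalization, 32 with a common median, 92 with only probe sets above the median level, 41 with only named probe sets, 48 with array weights and 108 at a threshold of 0.1. It was 145 with the variance trend and 175 with a robust prior too. It was 8 with the intron control covariate, 1 with the fibroblast, 2 with the adipocyte, and 0 with the endothelial or macrophage covariate or without both arrays of highest adipocyte mean. It lay between 1 and 15 without single animals. The cause was not tested.

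The replicate numbers were not treated as pairs in the reported fit. Deviations from group means correlated at -0.09, 0.08 and -0.07 for same-numbered animals, and between -0.10 and 0.16 for differently numbered ones. With 3 animals per group this cannot settle whether the numbers pair animals. With the replicate block 1 probe set was called, 0 members among them, and the adjusted p was 0.268 for Igf1 and 0.0819 for Igfbp2.

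Signs turned for Igf2, Igf1r, Igf2r, Igfbp3 and Igfbp6 and, with the endothelial covariate, also for Igfbp4 and Igfbp5, which have the third and the fourth largest change of the family; none of these passed. Without single animals, values ran from -0.25 to 0.097 for Igf1r, -0.079 to 0.17 for Igf2r, -0.046 to 0.18 for Igfbp3 and -0.063 to 0.27 for Igfbp6, across 0 in each case, and from 0.0096 to 0.49 for Igf2. With the intron covariate Igf2r was -0.0027, and with the adipocyte covariate Igfbp6 was -0.018. The fibroblast covariate gave -0.015 for Igf2, 0.093 for Igf1r and -0.26 for Igfbp6. The endothelial covariate gave -0.43 for Igfbp3, -0.13 for Igfbp4, -0.42 for Igfbp5 and -0.68 for Igfbp6, and the macrophage covariate 0.019 for Igf1r, -0.044 for Igfbp3 and -0.48 for Igfbp6. Without both arrays of highest adipocyte mean, Igf2 was -0.095 and Igf1r 0.23. The cause was not tested.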
